A study of Mus musculus with 14 samples.

Results

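The comparison is between day 10 and day 6 in mouse embryonic fibroblasts transduced with SKO plus an empty Flag vector, with 2 arrays on each day. These 4 arrays, of 14 in the series, were taken by their titles and not by any measured value. The fibroblasts were of the ICR strain and were grown in medium for embryonic stem cells that was replaced daily. Feeder cells were taken out when the cells were trypsinized for RNA. The other arrays held fibroblasts given SKO plus HDAC7 or SKO plus MEF2C, each with 2 arrays a day, and fibroblasts given GFP, with 1 array a day. All SKO groups therefore share the SKO factors and differ in the added vector, and the GFP cells received no SKO. The labels leave the letters SKO unexplained; in reprogramming work they usually mean Sox2, Klf4 and Oct4, the last encoded by Pou5f1. Nothing in the labels says whether replicates 1 and 2 came from separate cultures, so the p-values reflect no more than the scatter among these arrays, possibly technical in origin. In bulk samples such as these, fewer cells of a type and less RNA per cell cannot be told apart.

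Reprogramming factors change the identity of fibroblasts over days to weeks. Early in that course fibroblasts are known to lose mesenchymal features, such as actin stress fibres and Snai2 or Twist expression, and to gain epithelial ones, such as E-cadherin and EpCAM, before pluripotency genes are switched on. The comparison asks which genes moved between these days under SKO with no added factor.

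Of 19935 genes, 747 (3.75%) were higher and 863 (4.33%) were lower at day 10 by limma at an adjusted p under 0.05, together 8.08%. Counts of called members in the gene lists below are to be read against these shares. The lists were chosen with earlier results of these data known, which may by itself raise their shares above those of all genes. The median difference over all genes was -0.02 on the log2 scale, in which every level and difference here is given, and the median size among called genes was 0.43. A difference of at least 1 was found for 56 of the genes that rose and 22 of those that fell. All 1610 called genes had 1 sign in each of the 4 pairs of a day 10 and a day 6 array, as did 44.4% of all genes. Leaving out day 6 replicate 2 gave 944 called genes, and a fit to these 4 arrays alone, with no spread borrowed from other groups, gave 504, of which 503 were among the 1610. Without day 10 replicate 2, 642 genes were called higher and 1263 lower. In all, 718 genes were called with the whole set and with each of the 4 arrays left out. Genes named below kept their call when any 1 of the 4 arrays was left out, except where stated.

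None of the presumed SKO genes, nor Hdac7 and Mef2c, passed the test between the days. Pou5f1, the Oct4 gene, read 11.99 and 11.77 at day 6 and 11.98 and 12.10 at day 10, against 5.24 and 5.18 in the GFP arrays of the same days. Its SKO+Flag levels overlapped between days (difference 0.16, limma adjusted p = 0.273), and all 4 lay far above GFP. Sox2 read 5.21, 5.17, 5.37 and 5.31, near its GFP levels of 4.93 and 5.27 (difference 0.15, adjusted p = 0.316 in limma). These readings lay under the array median over genes. Whether the Sox2 probe set reads a transgene is not known, so they do not show whether a Sox2 vector was expressed. Klf4 differed by 0.03 (limma adjusted p = 0.91). Hdac7 and Mef2c were not added to these cells, so their readings are not of a vector; they differed by 0.12 and -0.25 (limma adjusted p = 0.508 and 0.187).

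Among the 12 largest rises were genes of transport, adhesion and secretion. Slc7a3, a carrier of cationic amino acids, read 6.61 and 6.66 at day 6 and 9.61 and 9.60 at day 10, a 7.86-fold rise (difference 2.97, SE 0.07, limma adjusted p = 4.26e-09). Both day 10 arrays lay far above both day 6 arrays, and the GFP arrays stayed low at 6.13 and 6.35. Cstdc2, a cystatin family gene, rose 4.93-fold, from 6.03 or less at day 6 to 8.17 and 8.46. Trh, from which thyrotropin-releasing hormone is made, rose from 9.26 and 9.32 to 10.97 and 11.12, with GFP at 5.02 and 5.43. Trh was thus already far above GFP at day 6 and rose further. The rest, with their log2 differences, were Srgn (1.81, the proteoglycan serglycin), Atp2a3 (1.72, a calcium pump of the endoplasmic reticulum), Aqp3 (1.67, a water and glycerol channel), Erbb3 (1.57, a neuregulin receptor), Fetub (1.56), Cd34 (2.82-fold, a sialomucin of progenitor and endothelial cells), Tgm3 (1.48, a transglutaminase) and Cyp2f2 (1.48), with Epcam described below. Srgn had the widest day 10 pair of the 12, 7.71 and 8.34, both above its day 6 levels of 6.19 and 6.24. All 24 genes of the largest rises and falls kept their call in the fit to the 4 arrays alone.

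Anxa10, an annexin, had the largest fall: it read 8.33 and 8.29 at day 6 and 6.39 and 6.19 at day 10, 4.07-fold lower (difference -2.02, SE 0.08, limma adjusted p = 5.79e-07). The days did not overlap, and the GFP arrays were lower still at 4.62 and 4.89. Next were Cnn1 (-1.49) and Tagln (-1.35), both actin-binding proteins of contractile cells. Stc1, a secreted glycoprotein, went from 7.44 and 7.24 to 5.93 and 6.11, close to its GFP levels of 5.94 and 5.83. Others were Nabp1 (-1.30, a single-strand DNA binding protein), Cck (-1.29, cholecystokinin), Tslp (-1.25, an epithelial cytokine), Fhl1 (-1.24, a LIM domain protein of muscle), Gask1b (-1.19), Nrcam (-1.15, a neuronal adhesion molecule), Gnai1 (-1.14, an inhibitory G protein subunit) and the unnamed transcript U90926 (-1.12). Cck also fell by 1.08 between the GFP arrays, and the difference of the 2 time changes of Cck was not called (limma adjusted p = 0.53).

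**Figure D1:**
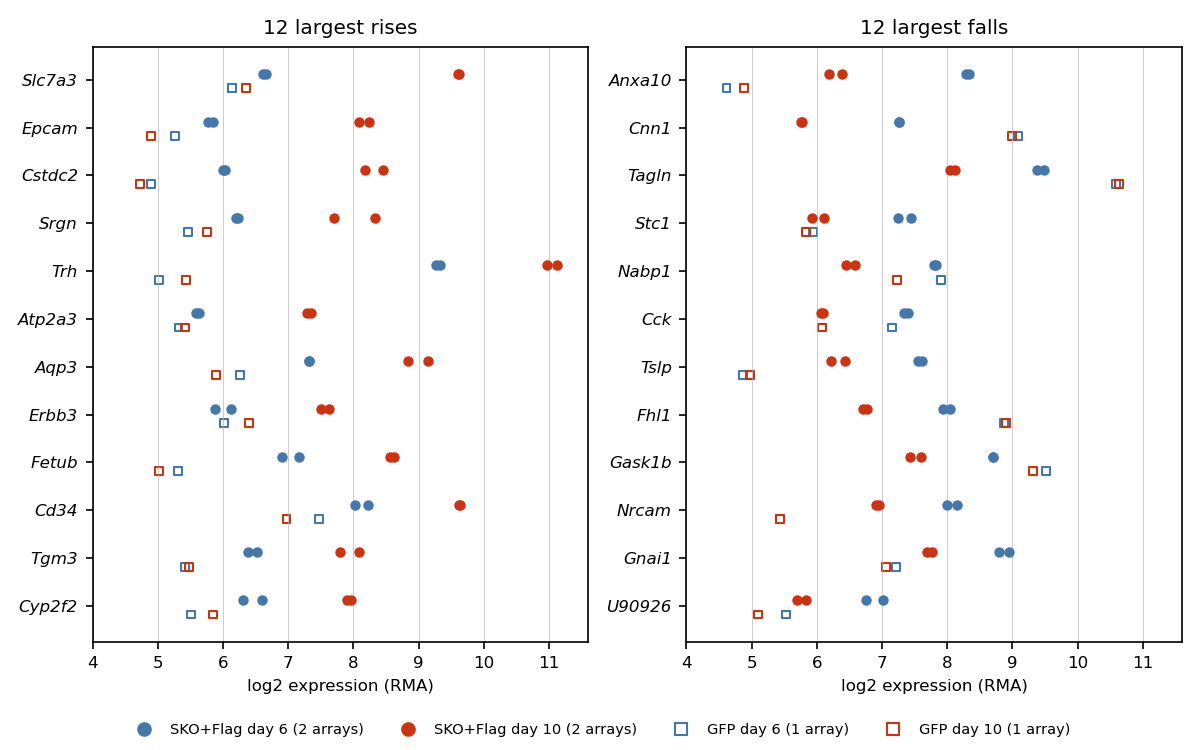
The horizontal axis is the log2 expression of the 12 genes with the largest rise (left) and the 12 with the largest fall (right); circles are the 2 SKO+Flag arrays of each day and open squares the 1 GFP array of each day. In all 24 genes the day 6 and day 10 circles do not overlap, and Slc7a3 and Anxa10 are the most widely separated.

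Of 30 measured epithelial genes of cell junctions and polarity, 9 were called higher, 0 lower and 21 did not pass the test, with a median of 0.15 and a lowest value of -0.25. Epcam, an epithelial adhesion molecule, read 5.84 and 5.76 at day 6 and 8.08 and 8.24 at day 10, a 5.12-fold rise (difference 2.36, SE 0.10, limma adjusted p = 5.79e-07). Its 2 days were clearly apart, while the GFP arrays read 5.26 and 4.90. St14, the membrane protease matriptase, rose by 1.08, from 5.84 and 5.73 to 6.82 and 6.91. Ocln, a tight junction protein, rose by 0.97, from 5.38 and 5.37 to 6.08 and 6.61, with the day 10 arrays unequal but both higher. Spint2, an inhibitor of matriptase, rose by 0.84, from 8.15 and 8.10 to 8.96 on both day 10 arrays. Cdh1, the E-cadherin gene, was named after its values were seen. It read 6.13 and 6.15 at day 6 and 6.61 and 6.76 at day 10 (difference 0.55, limma adjusted p = 0.0145), and its adjusted p was 0.0678, 0.0737 and 0.0641 without day 6 replicate 1, day 6 replicate 2 and day 10 replicate 2. On all 4 arrays 14 of the 30 genes lay under the array's median over genes (5.91 to 5.96). With no detection calls, such genes are not shown to be above background.

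Keratins, the intermediate filaments of epithelia, gave 5 of 13 higher and 0 lower (3 higher in the fit to the 4 arrays alone), with a median of 0.20. On all 4 arrays 9 of the 13 lay under the array median, so these are not shown to be above background. Krt8, of simple epithelia, read 6.54 and 6.47 and then 7.68 and 7.11 (difference 0.89, SE 0.15, limma adjusted p = 0.00314). Krt19 rose by 0.78, Krt14 by 0.66 and Krt6a by 0.58. The last 2 keratins belong to stratified epithelium and read low, between 5.05 and 6.53 on the 4 arrays. Of 16 keratinocyte markers, 4 were called higher, namely Lgals7 (0.92, from 6.09 and 6.16 to 7.05 and 7.03), Klk10 (0.74), Sprr1a (0.68) and Krt14, which is also counted among the keratins. Of the rest, 1, Cnfn, was lower (-0.51) and 11 were not called. The median keratinocyte marker differed by -0.01, and 9 of 16 lay under the array median on all 4 arrays. The mean level of the 16 was 5.53 on both day 6 arrays and 5.69 and 5.63 at day 10, and the part of keratinocytes in the epithelial result was not tested.

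The letters CACCTG, bound by Snail and ZEB repressors in the promoters of epithelial genes, were searched on both strands of the 250 bases before each gene's start in RefSeq (build GRCm38.p6). They stood in 19.4% of 27025 genes' windows and in 11 of the 16 epithelial genes with a window. These were 4 of the 5 called genes and 7 of the 11 that did not pass. The windows of Epcam and Ocln, the called genes with the largest rise that hold the letters, are shown because these genes lead the list. Capitals mark CACCTG or its reverse complement, and both are given 5′ to 3′ on the gene's strand. Epcam lies on chromosome 17 (chr17:87635729-87635978, plus strand) and Ocln on chromosome 13 (chr13:100552499-100552748, minus strand). A match is a description of letters and shows no binding here.
Epcam: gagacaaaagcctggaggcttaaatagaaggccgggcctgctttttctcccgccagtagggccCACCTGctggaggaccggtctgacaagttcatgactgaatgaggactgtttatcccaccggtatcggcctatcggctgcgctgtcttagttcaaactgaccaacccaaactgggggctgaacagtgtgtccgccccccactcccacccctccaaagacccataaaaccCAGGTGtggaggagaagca
Ocln: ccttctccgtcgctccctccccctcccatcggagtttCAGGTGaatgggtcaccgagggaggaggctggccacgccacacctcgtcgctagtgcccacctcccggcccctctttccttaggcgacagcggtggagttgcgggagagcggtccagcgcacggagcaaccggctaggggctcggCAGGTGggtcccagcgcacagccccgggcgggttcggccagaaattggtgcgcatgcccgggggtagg

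Mesenchymal transcription factors fell in part, 6 of 20 with 1 higher (3 and 0 in the fit to the 4 arrays alone), at a median of -0.10. Snai2, a zinc-finger repressor of E-cadherin, read 7.73 and 7.75 at day 6 and 7.06 and 7.20 at day 10 (difference -0.61, SE 0.07, limma adjusted p = 0.000299). The days did not overlap, and in GFP Snai2 went from 8.86 to 9.30. Prrx2 and Prrx1, homeobox genes of limb and craniofacial mesenchyme, fell by 0.67 and 0.60, and Twist2, a basic helix-loop-helix factor, fell by 0.48. Tbx15, a T-box gene, was the 1 member called higher (0.38), and its call was lost without day 6 replicate 2, leaving 0.

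Most smooth muscle contractile genes fell: 13 of 17 were called lower and 0 higher, with a median of -0.56. Acta2, smooth muscle actin and the usual marker of myofibroblasts, read 11.55 and 11.52 at day 6 and 10.54 and 10.58 at day 10, a 1.96-fold fall (difference -0.97, SE 0.06, limma adjusted p = 7.62e-06). Tagln, or SM22, went from 9.38 and 9.48 to 8.12 and 8.05, a 2.55-fold fall. Cnn1, calponin, went from 7.26 on both day 6 arrays to 5.75 and 5.78, under the array median. Myl9, a regulatory myosin light chain, went from 8.64 and 8.74 to 7.55 and 7.67. In these 4 genes the days were far apart and the replicates close. In GFP the same genes were higher on both days and did not fall together: Acta2 read 12.33 and 12.49, Tagln 10.59 and 10.64, Cnn1 9.08 and 8.99, and Myl9 9.77 and 10.23. The list's median in GFP was 0.06, and 13 of its 17 members had a lower time change in SKO+Flag than in GFP by limma's test of the difference (3.16% of all genes did). Of the 13 members with a promoter window, 3 (Cnn2, Myl9 and Srf) held a CArG box, the element read by serum response factor, as did 1.62% of all windows. These were 2 of the 10 called members and 1, Srf, of the 3 that did not pass, so the box was not more frequent among the genes that fell.

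Genes of the matrix split. Of 20 collagens, 3 were higher and 3 lower, at a median of -0.07. Col12a1, a fibril-associated collagen, fell by 0.84, from 8.91 and 8.79 to 7.96 and 8.07, and Col1a1 and Col5a1, of fibrillar collagens I and V, both fell by 0.40. Col6a3 rose by 0.39, from 9.15 and 9.22 to 9.64 and 9.52. Col3a1 (0.37) and Col14a1 (0.34) were also called higher, but both lost their call without day 6 replicate 1 and without day 10 replicate 1, which left 1 collagen called higher in each case. In the fit to the 4 arrays alone, 0 collagens were higher and 1 lower.

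Of 20 proteoglycan and elastic fibre genes, 8 were lower and 2 higher, at a median of -0.25. Vcan, the proteoglycan versican, read 9.61 and 9.58 and then 8.27 and 8.80 (difference -1.06, SE 0.13, limma adjusted p = 0.00047), with unequal day 10 arrays that both lay lower. Lox, which crosslinks collagen and elastin, went from 9.47 and 9.44 to 8.55 and 8.52. Efemp1, a fibulin, fell by 0.86, and Fbn2, a fibrillin, fell by 0.43. Eln, elastin itself, went the other way, from 6.54 and 6.69 to 7.93 and 7.58 (difference 1.14, SE 0.13, limma adjusted p = 0.00033). The second gene that rose was Dcn, decorin (0.44), whose call was lost without either day 6 array or without day 10 replicate 2. Without day 6 replicate 2, 5 members of the list were lower and 1 was higher, and in the fit to the 4 arrays alone 4 and 1.

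Matrix proteases and their inhibitors gave 11 of 22 lower and 1 higher, at a median of -0.25. The count fell to 7 without either day 6 array and to 4 in the fit to the 4 arrays alone. Adamts1, which cleaves versican and aggrecan, read 8.88 and 8.97 and then 8.04 and 8.07 (difference -0.87, limma adjusted p = 7.62e-06). Timp1, an inhibitor of metalloproteases, fell by 0.62 and Plaur, the urokinase receptor, by 0.55. Mmp3, stromelysin, rose by 0.52, from 7.17 and 7.29 to 7.63 and 7.87.

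Among 27 surface and matricellular genes of fibroblasts, 11 were lower and 4 higher, at a median of -0.25. Thbs2, a thrombospondin, read 10.54 and 10.59 and then 9.73 and 9.84, while in GFP it went from 10.04 to 11.15. Cdh2, N-cadherin, fell by 0.77 from 8.25 and 8.24 to 7.42 and 7.52, Tnc, tenascin C, by 0.76 and Cdh11 by 0.66. Thy1, a surface marker of fibroblasts, fell by 0.53, from 7.95 and 8.05 to 7.47 and 7.48. Mgp, matrix Gla protein, rose by 0.60, from 9.38 and 9.36 to 9.99 and 9.95. Without either day 6 array, 2 members were called higher, and in the fit to the 4 arrays alone 1 was higher and 7 lower. The list of 15 general fibroblast markers had 6 lower and 3 higher at a median of -0.16 (3 lower and 1 higher without either day 6 array, 1 higher without day 10 replicate 1, 2 and 0 in the fit to the 4 arrays alone). Their mean level was 9.54 and 9.53 at day 6 and 9.39 and 9.45 at day 10, 14 of 15 lay above the array median on all 4 arrays, so markers of the labelled cell type were present on both days.

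**Figure D2:**
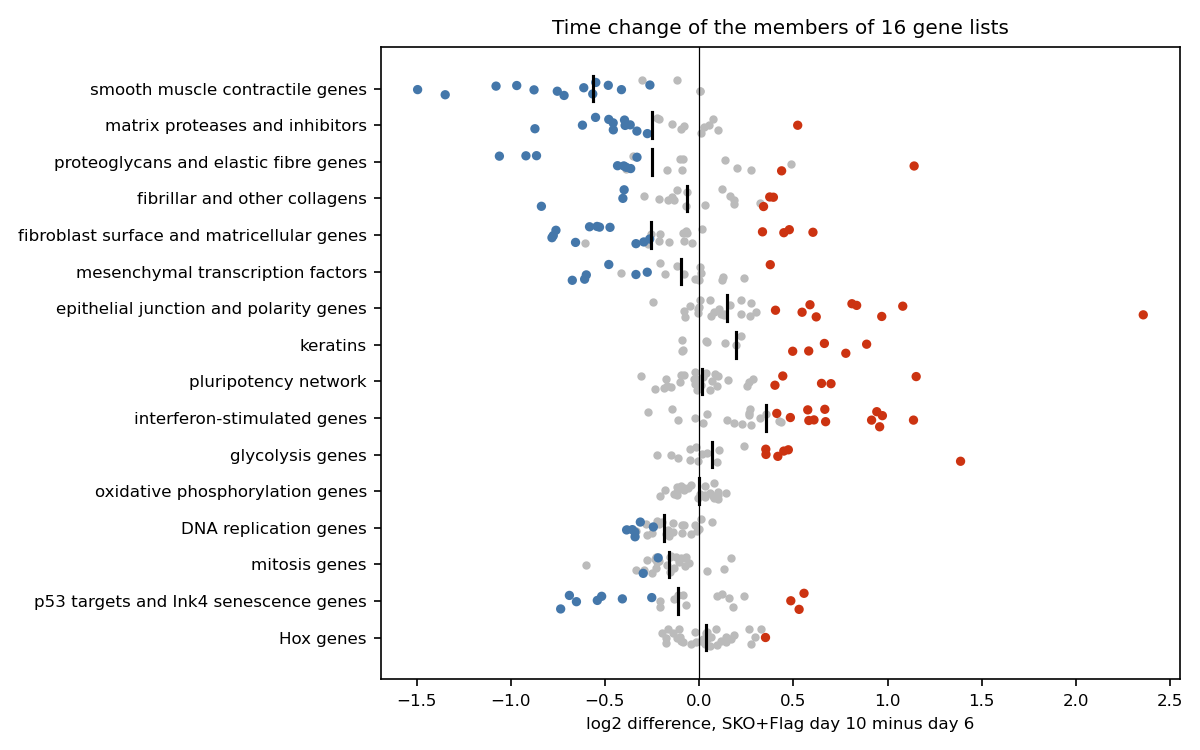
The horizontal axis is the log2 difference, day 10 minus day 6, of every measured member of 16 gene lists in SKO+Flag; red and blue points were called higher and lower, grey points were not called, and the black bar is the list's median. Contractile genes lie furthest to the left with a median of -0.56, interferon-stimulated genes furthest to the right with a median of 0.35, and none of the oxidative phosphorylation genes was called.

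Signalling genes of 3 growth factor families gave small counts. In the TGF-beta list of 19 genes, 5 were lower and 3 higher (3 lower without day 6 replicate 2, 1 higher without day 10 replicate 1, 2 and 1 in the fit to the 4 arrays alone). Ltbp4, which tethers latent TGF-beta in the matrix, read 6.68 and 6.75 and then 7.61 and 7.80, a rise of 0.99, whereas its relative Ltbp2 fell by 0.76. The ligands Inhba, of activin A, and Tgfb3 fell by 0.66 and 0.52. Of 21 BMP ligands and targets, 5 were lower and 0 higher (3 without day 6 replicate 1, 2 without day 6 replicate 2, 1 in the fit to the 4 arrays alone). They included Grem1, a secreted BMP antagonist (-0.66), and the target Id2, which blocks helix-loop-helix proteins (-0.56, from 8.80 and 8.71 to 8.21 and 8.18). Of 21 Wnt genes, 4 were lower and 1 higher. The 4 became 2 without day 6 replicate 2 or day 10 replicate 1 and 1 with the replicate number as a block within each vector; the 1 became 0 without day 6 replicate 2, and both became 0 in the fit to the 4 arrays alone. Lgr5, a receptor for R-spondins, fell by 0.70.

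Receptor kinases were mixed, 5 of 25 higher and 6 lower. Erbb3 read 5.87 and 6.12 at day 6 and 7.50 and 7.63 at day 10, and Tek, the angiopoietin receptor, rose by 0.88, from 7.56 and 7.39 to 8.27 and 8.43. Fgfr1 rose by 0.36, while Fgfr2 fell by 0.71 and Flt1, a VEGF receptor, by 0.53. The 5 higher became 3 without day 6 replicate 2 and without either day 10 array, the 6 lower became 3 without day 6 replicate 1, and the fit to the 4 arrays alone called 2 and 1. Tek and Cd34 were the 2 of 17 endothelial markers called higher (0 lower, median -0.02), and 12 of the 17 lay under the array median on all 4 arrays.

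Of 25 genes of the IGF system and imprinted growth genes, 9 were lower and 3 higher (5 and 1 in the fit to the 4 arrays alone). Slc38a4, an imprinted amino acid transporter, went from 7.15 and 7.01 to 6.29 and 6.17 (difference -0.85, limma adjusted p = 0.000299). Igf2, a fetal growth factor, fell by 0.70 and Igf1 by 0.64, while both rose in GFP, by 0.70 and 2.03. Plagl1, an imprinted zinc-finger gene, fell by 0.57. Cdkn1c, an imprinted inhibitor of cyclin-dependent kinases, rose by 0.53, and Igfbp4, an IGF-binding protein, by 0.51.

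Of 32 pluripotency genes, 5 were higher (15.6%, against 3.75% of all genes) and 0 lower, at a median of 0.02. The 5 became 3 without day 6 replicate 1, with array weights and in the fit to the 4 arrays alone. Tfcp2l1, a transcription factor of naive embryonic stem cells, read 6.60 and 6.54 and then 7.63 and 7.81 (difference 1.15, SE 0.08, limma adjusted p = 7.62e-06). Nr0b1, a nuclear receptor also called Dax1, rose by 0.70 but read low, 4.77 and 4.87 and then 5.57 and 5.46. L1td1, an RNA-binding protein of embryonic stem cells, rose by 0.65, from 7.11 and 7.22 to 7.74 and 7.88. On all 4 arrays 23 of the 32 lay under the array median. Among them was Nanog, named after its values were seen, at 5.13, 5.25, 5.59 and 5.32 against 5.51 and 5.39 in GFP (difference 0.26, limma adjusted p = 0.0891; adjusted p = 0.01 without day 10 replicate 2). In the list of 22 DNA methylation and Polycomb genes, the largest rise was that of Apobec1, by 0.86 from 6.66 and 6.73 to 7.44 and 7.67. Apobec1 is a cytidine deaminase and neither a DNA methylation nor a Polycomb enzyme. The other calls, Jarid2 (0.48), Dnmt3a (0.39) and Ezh1 (0.27), were each lost without 1 or more arrays and in the fit to the 4 arrays alone. Counting Apobec1, 4 of the 22 were higher. That count was 1 without day 6 replicate 2, 2 without day 10 replicate 2 and 1 in the fit to the 4 arrays alone. No gene of the endoderm and trophoblast list was called (18 measured, -0.18 to 0.13, median -0.03), and of its members Gata6 and Hand1 had the highest levels. Of 33 Hox genes 1 was called higher (3.03%, near the 3.75% of all genes). It was Hoxd4 (0.35), and this call was lost without day 6 replicate 2 or either day 10 array.

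Of 29 interferon-stimulated genes, 12 rose and 0 fell, with a median of 0.35; without day 10 replicate 2, 1 was lower. Gbp3, a guanylate-binding protein, read 6.87 and 6.60 at day 6 and 7.72 and 8.02 at day 10 (difference 1.14, SE 0.11, limma adjusted p = 0.000106). Oasl2 and Oas2, of the oligoadenylate synthetase family that senses double-stranded RNA, rose by 0.97 and 0.94, from 6.84 and 6.76 to 7.74 and 7.81 and from 5.75 and 5.77 to 6.71 and 6.69. Irgm1, an immunity-related GTPase, rose by 0.96, from 6.92 and 6.54 to 7.65 and 7.73. In each of the 4 genes both day 10 arrays were above both day 6 arrays. The list's median in GFP was 0.21, and Oasl2 rose by 1.01 there as well. By limma's test of the difference, 2 of the 29 had a larger and 2 a smaller time change with SKO+Flag than with GFP. Of 12 antigen presentation genes, 2 were higher, the peptide-loading protein gene Tapbp (0.615) and the proteasome activator gene Psme2 (0.50), and 4 without day 10 replicate 2. Macrophage markers stayed low: 14 of 17 lay under the array median on all 4 arrays, and their mean level was 5.29 and 5.31 at day 6 and 5.25 and 5.20 at day 10. Itgam, the integrin CD11b, fell by 0.70, from 6.25 and 6.18 to 5.46 and 5.57. The other 2 macrophage calls, Laptm5 (0.40) and Cx3cr1 (0.38), were both lost without day 6 replicate 2 or day 10 replicate 1, and Cx3cr1 also without day 6 replicate 1.

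The letters GAAA, any 2 bases and GAAA again, the core of the interferon-stimulated response element, were searched in the same way. They stood in 3.46% of the 27025 windows and in 10 of the 21 interferon-stimulated genes with a window, 5 of the 10 called and 5 of the 11 not called. The windows of Gbp3 (chr3:142559794-142560043, plus strand) and Irgm1 (chr11:48871421-48871670, minus strand), build GRCm38.p6 from RefSeq, are shown as the called members with the largest rise that hold them. Capitals mark the letters or their reverse complement. In both genes, matches that overlap run together.
Gbp3: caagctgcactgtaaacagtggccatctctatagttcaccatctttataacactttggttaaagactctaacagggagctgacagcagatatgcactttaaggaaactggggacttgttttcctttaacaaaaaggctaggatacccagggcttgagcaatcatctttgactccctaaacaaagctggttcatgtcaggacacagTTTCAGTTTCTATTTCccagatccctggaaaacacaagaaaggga
Irgm1: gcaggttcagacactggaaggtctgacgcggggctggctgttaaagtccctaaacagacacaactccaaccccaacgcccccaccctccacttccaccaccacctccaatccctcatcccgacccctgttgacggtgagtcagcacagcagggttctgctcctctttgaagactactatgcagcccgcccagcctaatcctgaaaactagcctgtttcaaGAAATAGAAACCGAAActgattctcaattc

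Chemokines and other inflammatory genes went the other way from the interferon genes, with 9 of 32 lower and 2 higher at a median of -0.12 (4 and 1 in the fit to the 4 arrays alone). Among genes above the median level, 5 were lower and 0 higher. On all 4 arrays 16 of the 32 lay under the array median, so these are not shown to be above background. Tslp read 7.61 and 7.54 at day 6 and 6.22 and 6.44 at day 10. Has2, a hyaluronan synthase, fell by 1.01, from 7.25 and 7.28 to 6.17 and 6.33, and Ptgs2, cyclooxygenase 2, by 0.78, from 10.68 and 10.71 to 9.80 and 10.02. Saa3, an acute-phase protein, rose by 0.87 from 5.35 and 5.30 to 6.14 and 6.25. The second gene called higher, Ccl11, lost its call without either day 6 array or day 10 replicate 1. Among 25 immediate early genes, 6 were higher and 3 lower. Egr1, a zinc-finger factor of the growth response, read 7.21 and 7.03 and then 8.04 and 8.08 (0.94), and it rose by 0.84 in GFP. Dusp6 and Spry4, feedback inhibitors of the ERK pathway, rose by 0.62 and 0.51, while Dusp1, another phosphatase of MAP kinases, fell by 0.61 and Nr4a2, an orphan nuclear receptor, by 0.62. In the fit to the 4 arrays alone, 1 of these genes was lower.

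Of the cell cycle genes, 21.4% of the replication list and 7.14% of the mitosis list were called lower, against 4.33% of all genes. Of 28 DNA replication genes, 6 were lower and 0 higher, at a median of -0.19 (3 without day 10 replicate 1, 0 in the fit to the 4 arrays alone). Orc6, of the origin recognition complex, was the member with the largest fall, from 7.36 on both day 6 arrays to 6.89 and 7.05 (-0.39). Of 28 mitosis genes, 2 were lower, Aurka (-0.30) and Ccna2 (-0.22). Both lost their call whichever of the 4 arrays was left out. The count for mitosis was 0 without either day 6 array or day 10 replicate 1, 7 other genes without day 10 replicate 2, and 0 with median centring. The mean deviation of the mitosis genes from their means over the 14 arrays was 0.24 and 0.16 at day 6 and -0.07 and 0.13 at day 10. Day 10 replicate 1 was thus low and replicate 2 lay close to day 6. The 2 day 10 arrays differed by over 0.5 in 309 genes higher on replicate 2 and 32 higher on replicate 1; at day 6 the counts were 48 and 19. The part of this difference in the list results was not tested beyond leaving each array out.

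Among 21 p53 targets and senescence genes, 7 were lower and 3 higher, at a median of -0.11. Ccng1, cyclin G1, read 11.48 on both day 6 arrays and 10.60 and 10.89 at day 10 (difference -0.73, limma adjusted p = 0.000478). Eda2r fell by 0.69 and Mdm2, the ligase that degrades p53, by 0.54. The cyclin-dependent kinase inhibitors Cdkn1b (0.56, from 7.68 and 7.51 to 8.10 and 8.20) and Cdkn1c rose, as did Sesn1, a sestrin (0.49). The fit to the 4 arrays alone called 2 of the list lower.

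In metabolism, 6 of 18 glycolysis genes were higher and 0 lower, at a median of 0.07 (3 in the fit to the 4 arrays alone). Aldoc, an aldolase, read 6.25 and 6.07 and then 7.51 and 7.58 (difference 1.39, SE 0.10, limma adjusted p = 1.72e-05). Slc2a3, a glucose transporter, rose by 0.47, Pfkl, a phosphofructokinase subunit, by 0.45 and Slc16a3, a lactate exporter, by 0.42. The glycolysis median in GFP was -0.29, and 6 of the 18 had a higher time change with SKO+Flag than with GFP, against 1.90% of all genes. Of 17 hypoxia genes, 2 were higher and 3 lower. Egln3, a prolyl hydroxylase that marks HIF for degradation, went from 7.21 and 7.23 to 8.63 and 8.66 (1.43), while Adm, adrenomedullin, went from 7.97 and 7.90 to 6.92 and 6.99 (-0.98). P4ha2 and Ero1a, enzymes of collagen hydroxylation and disulphide formation, fell by 0.54 and 0.52. The second hypoxia gene called higher, Bnip3, lost its call without day 6 replicate 1 or either day 10 array. None of 24 oxidative phosphorylation genes was called; their differences ran from -0.21 to 0.14, and Atp5b and Ndufa4 had the highest levels. Of 18 cholesterol synthesis genes 1 was lower, Sc5d (-0.39), a share of 5.56%, near the 4.33% of all genes.

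In the list of 26 ATF4 and unfolded protein response genes, 7 were lower and 1, Slc7a3, was higher; the 7 became 2 without day 6 replicate 2, where 2 were higher, 4 without day 10 replicate 1 and 2 in the fit to the 4 arrays alone. The count of higher genes was 3 with quantile normalization and 2 with the intensity-dependent prior, among genes above the median level and with a replicate block shared by all vectors. Asns, asparagine synthetase, read 10.33 and 10.36 and then 9.52 and 9.43, a fall of 0.87, and Psat1, of serine synthesis, fell by 0.45. Of 27 genes of NRF2 and xenobiotic metabolism, 7 were lower and 2 higher (4 and 1 in the fit to the 4 arrays alone). Akr1c18 and Akr1c14, aldo-keto reductases, fell by 0.91 and 0.94, from 11.37 and 11.48 to 10.50 and 10.53 and from 8.86 and 8.84 to 7.63 and 8.18. Both are near 5 in GFP (4.98 to 5.13), and probes of such related genes may share signal, which was not checked. Cyp1b1 and Aldh1a7 fell by 0.80 each, and Cbr2, a carbonyl reductase, rose by 0.65. Of 24 lysosome genes, 7 were lower and 0 higher, at a median of -0.21 (2 in the fit to the 4 arrays alone), among them Gla, alpha-galactosidase (-0.74), Gpnmb (-0.52) and the cathepsins Ctsd (-0.46) and Ctsk (-0.40). Fatty acid genes gave 3 of 23 lower and 1 higher, with the binding proteins Fabp3 (-0.75) and Fabp5 (-0.64) leading and the 1 rise, Scd2, lost whichever of the 4 arrays was left out.

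The time change with SKO+Flag was next set against that with GFP, which has 1 array a day and is assumed to vary like the other groups. Its 2 arrays share nothing with the 4 SKO+Flag arrays, and 3.68% of genes were called between them, 2.51% higher and 1.17% lower at day 10. The difference of the time changes was called for 1008 genes (5.06%), 379 higher (1.90%) and 629 lower (3.16%) with SKO+Flag. Of the genes that rose with SKO+Flag, 260 had a time change that differed from GFP's, and of those that fell, 307 did. The SKO+Flag change that picked these genes is also part of that test. Their counts and the medians that follow therefore lean towards a difference. The median time change in GFP was 0.04 over the genes that rose with SKO+Flag (0.45) and -0.01 over those that fell (-0.41). In GFP, 81 of the genes that rose were also called higher, 10.8% of them and 16.2% of GFP's own, and 51 of those that fell were also called lower, 5.91% and 21.9%. A further 96 of the genes that fell with SKO+Flag were called higher in GFP, 11.1% of them, and 22 of those that rose were called lower there, 2.95%. The proteoglycan and elastic fibre list had a median of 0.77 in GFP against -0.25, and 15 of its 20 members had a lower time change with SKO+Flag, against 3.16% of all genes. For the collagens the medians were 0.42 and -0.07 and the count 9 of 20, and for the fibroblast surface genes 0.52 and -0.25 and 17 of 27.

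**Figure D3:**
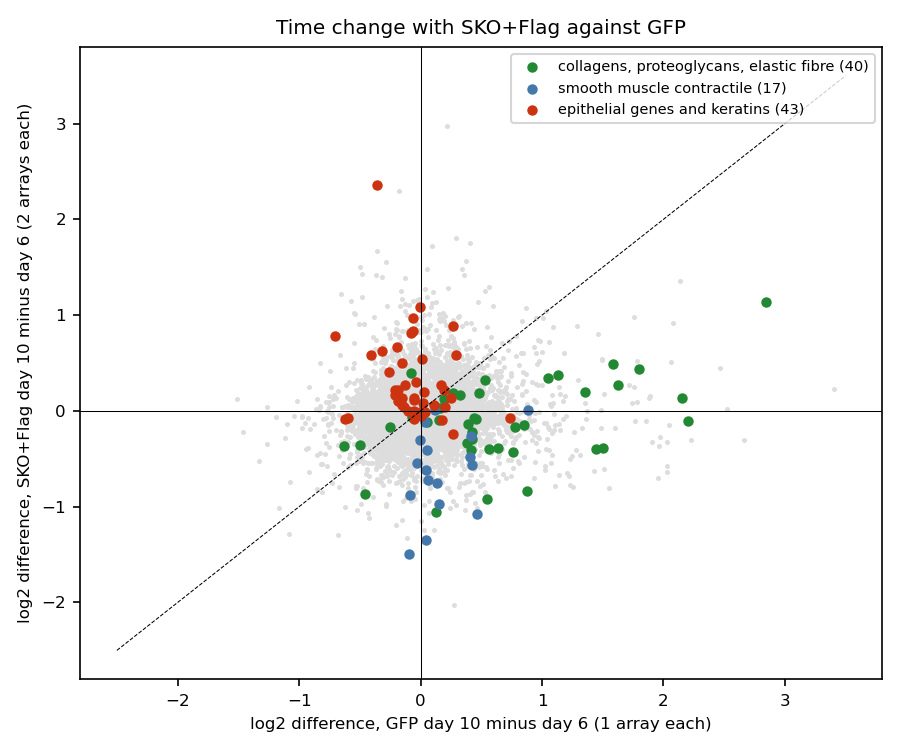
The axes are the log2 difference between day 10 and day 6 with GFP (horizontal, 1 array each) and with SKO+Flag (vertical, 2 arrays each); grey points are all genes, coloured points the members of 3 sets of lists, and the dashed line marks equal change. Most matrix genes spread to the right of 0, contractile genes lie below 0 near no change in GFP, and Epcam (2.36 against -0.36) stands highest among the epithelial genes.

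With HDAC7 in place of the empty vector, 2902 genes (14.6%) were called between the days, 7.86% of all genes higher and 6.70% lower, and with MEF2C 614 (3.08%), 1.85% higher and 1.23% lower. These groups share no array with SKO+Flag, though all groups share the estimate of spread. Of the 747 genes that rose with SKO+Flag, 535 also rose with HDAC7, 71.6% of them and 34.1% of HDAC7's own, and 287 rose with MEF2C, 38.4% and 77.8%. Of the 863 that fell, 594 fell with HDAC7 (68.8% and 44.5%) and 199 with MEF2C (23.1% and 81.2%). The median change of the genes that rose was 0.45 with the empty vector, 0.44 with HDAC7 and 0.28 with MEF2C, and that of the genes that fell was -0.41, -0.38 and -0.21. These genes were picked by their change with the empty vector, which favours larger medians there. The test of the difference itself called 25 genes against HDAC7 (0.125%; 17 higher with the empty vector, 0.0853%, and 8 lower, 0.0401%) and 17 against MEF2C (0.0853%; 8 higher, 0.0401%, and 9 lower, 0.0451%). These counts moved with single arrays: without day 10 replicate 2 of SKO+Flag they were 483 and 213, and without day 10 replicate 2 of SKO+HDAC7 the first was 0. With the replicate number as a block within each vector they were 0 and 1.

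Of the 17 genes, Slc7a3 and Anxa10 gave the differences from MEF2C that were called under each of the 8 leave-one-out fits. Slc7a3 rose by 2.97 with the empty vector and by 1.07 with MEF2C, a difference of 1.90 (SE 0.10, limma adjusted p = 1.87e-05). Anxa10 fell by 2.02 and by 0.79, a difference of -1.24 (SE 0.11, adjusted p = 0.00377 in limma), and its call was lost in the fit to the compared groups alone (adjusted p = 0.0694) and with the replicate number as a block within each vector (0.0553), where that of Slc7a3 was kept (0.000481 and 0.00342). Anxa10 fell further still with HDAC7 (-2.86), but that difference of 0.84 kept its call in 2 of the 8 leave-one-out fits, with adjusted p-values from 0.00875 to 0.106. Against HDAC7, Vegfd, a lymphatic growth factor, was called in 7 of the 8, more than the other genes named from that comparison, but not with the block within each vector (limma adjusted p = 0.12). It rose by 0.38 with the empty vector and fell by 0.65 with HDAC7 (difference 1.03, SE 0.09, limma adjusted p = 0.00659).

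**Figure D4:**
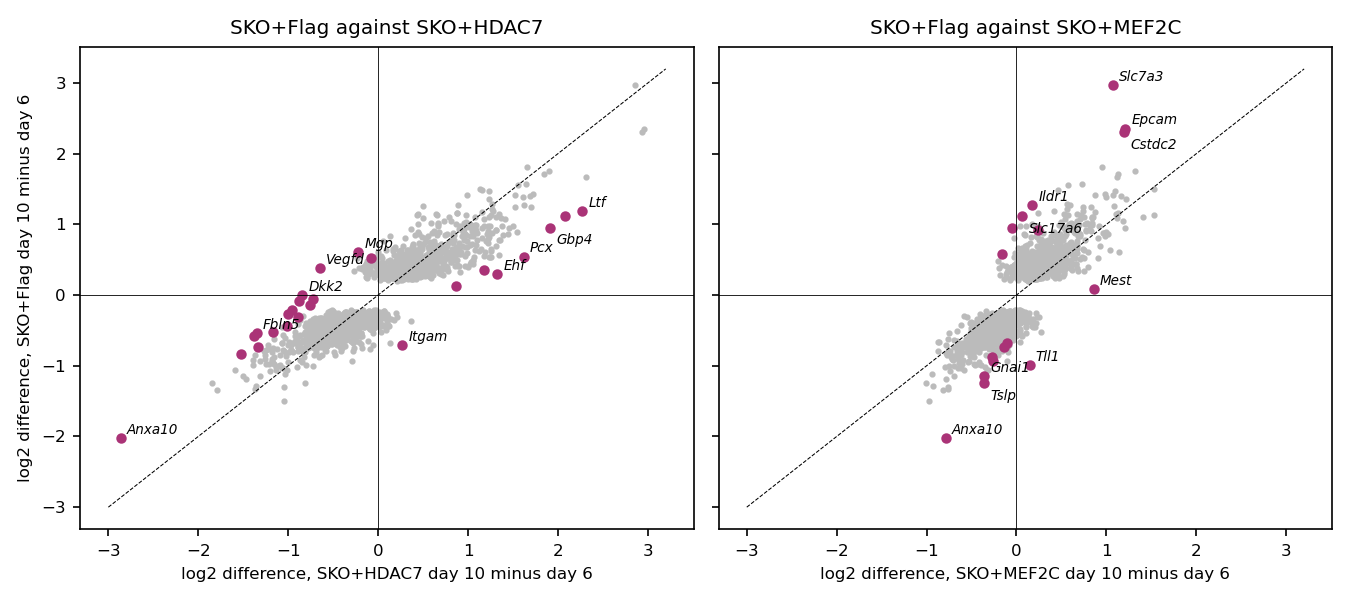
The axes are the log2 difference between day 10 and day 6 with SKO+HDAC7 (left, horizontal) or SKO+MEF2C (right, horizontal) and with SKO+Flag (vertical); grey points are the 1610 genes called with SKO+Flag, purple points the 25 and 17 genes whose time changes differed, and the dashed line marks equal change. Most grey points follow the line on the left and lie steeper than it on the right, and the 5 largest differences in each direction carry their gene names (Slc7a3 2.97 against 1.07 on the right).

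The mean deviation of the contractile genes from their means over the 14 arrays was 0.13 and 0.16 at day 6 and -0.47 and -0.48 at day 10 with SKO+Flag, and 0.79 and 0.96 with GFP. The epithelial list went from -0.12 and -0.06 to 0.23 and 0.25 with SKO+Flag and was at -0.54 and -0.61 with GFP. The time change medians of the contractile list were -0.56 with the empty vector, -0.49 with HDAC7 and -0.42 with MEF2C, and those of the epithelial list 0.15, 0.32 and 0.12. DNA replication genes had medians of -0.19, 0.10 and -0.18 and mitosis genes of -0.16, 0.09 and -0.04. Differences between these medians were not tested.

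**Figure D5:**
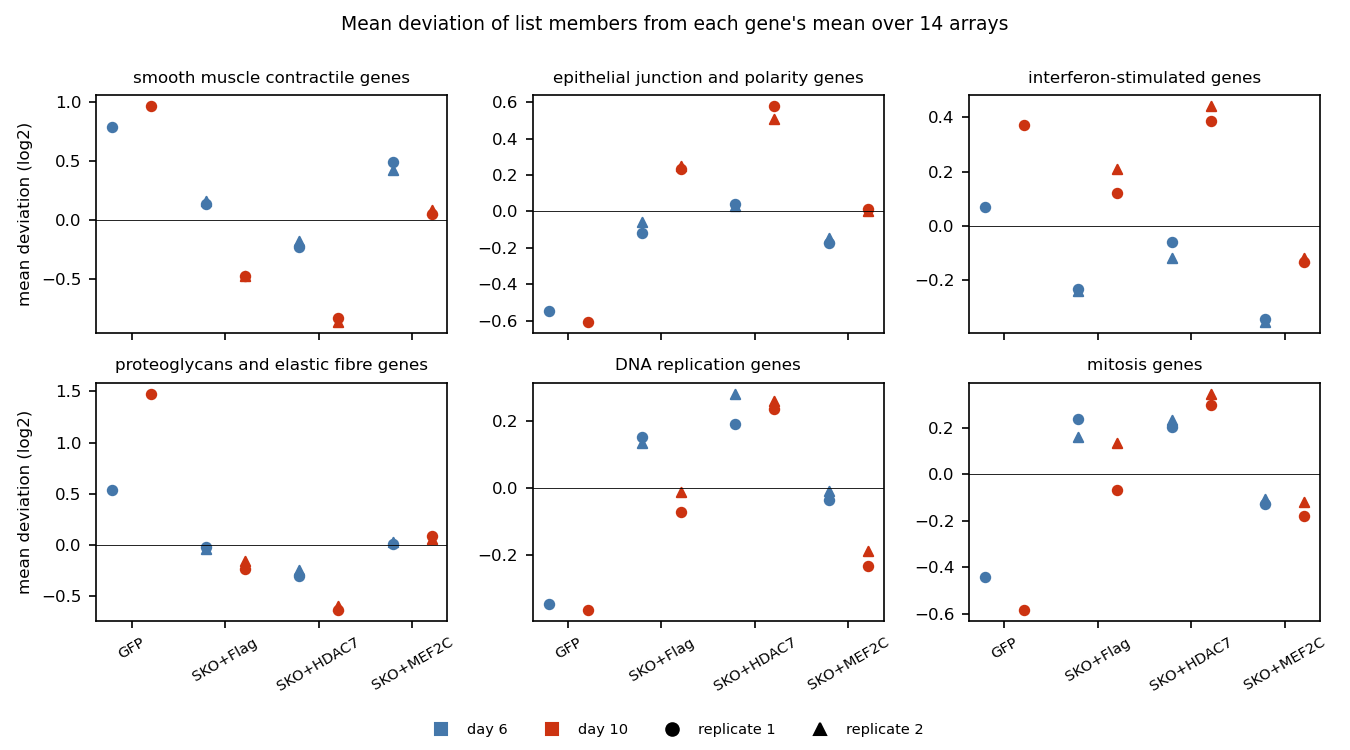
The vertical axis is the mean deviation of a list's members from each gene's mean over the 14 arrays, on the log2 scale; each point is 1 array, blue for day 6, red for day 10, circles for replicate 1 and triangles for replicate 2, by vector. Contractile genes drop by day 10 in the 3 SKO groups and not in GFP, and for mitosis genes the SKO+Flag day 10 arrays are apart (-0.07 and 0.13).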

How the data were processed

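RNA of each sample was hybridised to an Affymetrix array, per the labels' protocols. The deposited values are on a log2 scale, and per the submitters' processing notes the authors used RMA and Partek, of no stated version; a genome build for them is not given in the sources used here. These values were used unchanged, with no detection filter. The platform table paired 21780 of 28815 probe sets with a single symbol; those with several (1605) or none (5430) were set aside. Entrez IDs matched a RefSeq table (GRCm38.p6) for 21689 and changed 0 symbols. Where a gene had several probe sets (998 genes), the brightest over the 14 arrays stood for it, giving 19935 genes.

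A group-means model in limma 3.58.1 (R 4.3.3; lmFit, eBayes) covered 14 arrays in 8 groups, with 6 residual and 4.71 prior degrees of freedom and Benjamini-Hochberg adjustment. Differences of time changes were contrasts of the same model. The procedure was tested on simulated data. The precision is limited by the number of arrays: the SD between replicate arrays was 0.120 to 0.172, widest for SKO+Flag at day 10, and array medians were 5.68 to 5.76. Same-numbered arrays did not deviate together (correlations of -0.24, 0.02 and -0.04 in the SKO+Flag, SKO+HDAC7 and SKO+MEF2C groups), so the numbers were not used as pairs.

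Members and the 43 gene lists (908 of 968 entries measured by current symbol) were chosen with earlier results of these data known. Named genes are the transduced factors, the 12 largest called differences in each direction, up to 4 called members of each list in each direction, and the 5 largest called differences between time changes in each direction, all of 1 sign in all 4 pairs where they concern SKO+Flag alone. Alternatives were another prior, array weights, the compared groups alone, quantile or median scaling, probe set means, bright genes, a size of at least 1, replicate blocks and leaving out each array. Upstream promoter windows of 250 bases came from RefSeq.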

Additional observations from a re-analysis of the deposited data

Results flagged for a closer look

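The time changes below differed between SKO+Flag and another vector by limma's test of the difference itself, and each value is the SKO+Flag time change minus the other, on the log2 scale. They are the 5 largest called differences in each direction.

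Against SKO+HDAC7, the change was higher with the empty vector for Vegfd (1.03), Dkk2 (0.85), Anxa10 (0.84), Mgp (0.82) and Fbln5 (0.81). Dkk2, a Wnt antagonist, was level with the empty vector (0.00) and dropped by 0.85 with HDAC7, Mgp went up by 0.60 and down by 0.22, and Fbln5, a fibulin of elastic fibres, fell by 0.54 with the empty vector and fell by 1.35 with HDAC7. The change was lower with the empty vector for Ltf (-1.08), Pcx (-1.08), Ehf (-1.02), Itgam (-0.97) and Gbp4 (-0.96). Of these, Ltf, the iron-binding protein lactoferrin, rose by 1.19 with the empty vector and by 2.27 with HDAC7, and Itgam went down by 0.70 against up by 0.27. Of the 8 fits that each left out an array, Vegfd was called in 7, Fbln5, Pcx and Itgam in 6, Ltf in 4, Anxa10, Mgp, Ehf and Gbp4 in 2 and Dkk2 in 1.

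Against SKO+MEF2C, the change was higher with the empty vector for Slc7a3 (1.90), Epcam (1.15), Cstdc2 (1.11), Ildr1 (1.10) and Slc17a6 (1.05). Epcam rose by 2.36 with the empty vector and by 1.21 with MEF2C. Ildr1, a protein of tricellular junctions, rose by 1.28 and by 0.17, and Slc17a6, a vesicular glutamate transporter, by 1.12 and by 0.06. The change was lower for Anxa10 (-1.24), Tll1 (-1.13), Tslp (-0.89), Gnai1 (-0.78) and Mest (-0.77). Tll1, a protease of the tolloid family, went down by 0.99 against up by 0.15, and Mest, an imprinted gene, was nearly level (0.09) against up by 0.86. Of 8 such fits, Slc7a3 and Anxa10 were called in 8, Tll1 in 7, Epcam in 4, Ildr1, Slc17a6, Gnai1 and Mest in 3, Cstdc2 in 2 and Tslp in 1.

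Against GFP, the change was higher with SKO+Flag for Slc7a3 (2.75), Epcam (2.72), Cstdc2 (2.48), Aqp3 (2.03) and Cd34 (2.00). It was lower for Egfl6 (-3.17), Sfrp2 (-2.97), Igf1 (-2.67), Lgr5 (-2.66) and Ptx3 (-2.60). Egfl6, a secreted matrix protein, went up by 0.23 with SKO+Flag and by 3.40 with GFP. Sfrp2, a secreted Wnt modulator, went down by 0.31 against up by 2.67, and Ptx3, a pentraxin, down by 0.57 against up by 2.03. All 10 were called in each of the 4 fits that left out a SKO+Flag array; the GFP arrays have no replicate.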

How the results depend on the processing

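The count of called genes between the days with SKO+Flag was 1610. It was 504 in the fit to the compared groups alone, 78 with a difference of at least 1, and 944 to 1905 with each array left out, lowest without day 6 replicate 2 and highest without day 10 replicate 2. Under the other alternatives it stayed within 1.5 times, from 1120 with array weights to 1734 with the intensity-dependent prior. Of the 181 called genes named by rule, 134 kept their call with each of the 4 arrays left out and 107 in the fit to the compared groups alone. None of the 181 changed direction under any alternative run. Directions of named genes that were not called were not compared.

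For the time change with HDAC7 (2902) the counts were 159 with a difference of at least 1 and 1571 to 2063 with an array left out. With MEF2C (614) they were 994 with array weights, 24 with a difference of at least 1 and 250 to 317 with an array left out. With GFP (733) 111 genes differed by at least 1.

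The difference of time changes from HDAC7 (25) gave 66 genes with the intensity-dependent robust prior, 16 with array weights, 2 in the fit to the compared groups alone, 63 with quantile normalization, 69 among genes above the median level, 4 with a difference of at least 1, and 0 to 483 with an array left out. At an unadjusted p under 0.05, 2372 genes differed. That from MEF2C (17) gave 44 with the prior, 1 in the fit to the compared groups alone, 45 among genes above the median level, 8 with a difference of at least 1, and 2 to 213 with an array left out. That from GFP (1008) gave 206 in the fit to the compared groups alone and 245 with a difference of at least 1. The cause of these moves was not tested, except that the fit to the compared groups alone uses fewer arrays for the spread.

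With the replicate number as a block within each vector, limma called 1146 genes for SKO+Flag, 355 for MEF2C, 384 for GFP, 0 for the difference from HDAC7, 1 for that from MEF2C and 593 for that from GFP. A block shared by all vectors gave 1577 for SKO+Flag and 15 for the difference from HDAC7. A block with crossed numbers, chosen after seeing the data, gave 1554 for SKO+Flag and 0 and 5 for the differences from HDAC7 and MEF2C. No fit without a GFP array or on the GFP groups alone was possible, since each has 1 array. RMA values carry no detection calls, so changes of genes below the array median may be understated.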

Other observations

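Several gene groups not described above held a few called genes each. Of 28 neuropeptide and neuronal genes, 4 were higher and 7 lower (4 lower without day 10 replicate 1, 2 in the fit to the 4 arrays alone). Besides Trh, the rises included Npy, neuropeptide Y, which read 6.17 and 6.07 at day 6 and 6.94 and 7.24 at day 10 (difference 0.97, limma adjusted p = 0.000133), and Penk, proenkephalin (0.61). Besides Cck, the falls included the synaptic vesicle gene Syt1 (-0.67), the growth cone gene Gap43 (-0.36) and the microtubule gene Stmn2 (-0.34). Trh and Stmn2 read above 9 on all 4 arrays, and Stmn2 went down by 1.26 in GFP. Neural and glial markers, by contrast, had 1 of 12 lower, Nes (-0.38), which lost its call without day 6 replicate 2 or day 10 replicate 1, and 9 of the 12 lay under the array median throughout.

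Of 6 erythroid markers 1 was lower, the embryonic globin gene Hbb-y, which went from 8.27 and 7.96 to 7.09 and 7.19 (difference -0.97, limma adjusted p = 0.000202) against 4.93 and 4.65 in GFP; the other 5 lay under the array median on all 4 arrays. Of 28 striated muscle genes, 1 was higher, Tnnt2, cardiac troponin T (0.68, from 6.23 and 6.29 to 7.03 and 6.85), and 1 lower, Acta1 (-0.53), whose call was lost without either day 6 array or day 10 replicate 2. Each count was 3.57% of the list, near the shares over all genes (3.75% higher and 4.33% lower). Of 20 cartilage and mineralisation genes, 2 were higher and 1 lower. Cnmd, chondromodulin, rose by 0.77 from 5.45 and 5.46 to 6.19 and 6.26, while the calls of Cytl1 (0.49) and Acan (-0.39) were lost without 1 or more arrays: Cytl1 without day 6 replicate 1 or either day 10 array, and Acan without day 6 replicate 2. None of the 7 class IIa deacetylase and MEF2 genes was called (-0.25 to 0.18, median 0.09); Mef2a and Mef2d had the highest levels, and 2 of the 7 were called lower without day 10 replicate 2.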
